A study of Mus musculus with 4 samples.

Results

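The polo-like kinase genes Plk1, Plk2, Plk3 and Plk4 were followed across 4 arrays of mouse embryonic fibroblasts. They were taken as the probe sets annotated with exactly 1 gene symbol belonging to the family. This gave 4 genes of 19938 named genes, with 1 probe set each. All 4 were among the 10698 genes that reached a brightness filter, set at 5.87, the 50th percentile of the values of singly annotated probe sets, on at least 1 array.

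The cells came from mid-gestation embryos of C57BL/6 background. All lacked BAX and BAK, the effectors that permeabilise mitochondria in apoptosis, and all were transformed with SV40, a virus that encodes an inhibitor of p53 and RB, the large T antigen. The 4 groups were p63-transduced cells with etoposide for 6 h, p63-transduced cells with mock treatment, GFP-transduced cells with etoposide for 6 h and GFP-transduced cells with mock treatment, with 1 array each. Both genes were delivered by retrovirus, and the sources used here name neither the isoform nor the species of p63. Etoposide traps topoisomerase II on cleaved DNA. The labels' treatment protocol gives it at 10 µg/mL, and other labels give the same number per microlitre.

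Polo-like kinases are serine/threonine kinases with a kinase domain at the amino terminus and polo boxes at the carboxyl terminus, which dock them to their substrates. Plk1 drives entry into mitosis, spindle assembly and cytokinesis, and Plk4 starts the duplication of centrioles. Plk2 was first described as a gene induced by serum in fibroblasts. Both Plk2 and Plk3 are known as stress-responsive, with Plk2 a target of p53. The comparisons ask how the mitotic and the stress-responsive members stand after DNA damage and with p63, a member of the p53 family.

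Promoter windows reach from 250 bases before the annotated transcript start to 50 bases after it and come from RefSeq (GRCm38.p6), in which all 4 genes matched. Those of Plk1 and Plk2 are printed 5′ to 3′ because they hold the motif matches among the 4 windows, and capitals mark the matched letters. The Plk1 window lies at chr7:122159185-122159484 and the Plk2 window at chr13:110394794-110395093, both on the plus strand.
Plk1: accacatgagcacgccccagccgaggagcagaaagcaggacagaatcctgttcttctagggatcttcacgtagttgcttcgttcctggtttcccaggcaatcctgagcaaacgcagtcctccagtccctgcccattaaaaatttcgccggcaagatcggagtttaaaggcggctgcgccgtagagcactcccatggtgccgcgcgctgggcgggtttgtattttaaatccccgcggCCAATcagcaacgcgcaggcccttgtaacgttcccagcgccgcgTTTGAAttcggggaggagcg
Plk2: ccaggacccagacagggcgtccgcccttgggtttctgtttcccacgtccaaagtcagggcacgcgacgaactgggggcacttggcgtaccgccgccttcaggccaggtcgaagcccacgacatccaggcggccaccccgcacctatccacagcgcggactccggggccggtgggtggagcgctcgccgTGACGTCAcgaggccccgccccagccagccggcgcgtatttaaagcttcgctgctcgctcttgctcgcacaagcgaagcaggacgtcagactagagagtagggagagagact
The windows were searched on both strands for the cell cycle homology region (CHR, TTTGAA or TTCGAA), which binds complexes that repress or activate late cell cycle genes, and for the CCAAT box (CCAAT). Consensus letters of the p53 half-site, the CArG box of serum response factor, the AP-1 site (TGANTCA) and the cAMP response element (TGACGTCA) were also sought. The Plk1 window held a CCAAT box from 14 to 10 bases before the start and a CHR from 31 to 36 bases after it, and these do not overlap. A CCAAT box occurred in 37.4% and a CHR in 19.2% of 32851 promoter windows of the same length. The Plk2 window held a cAMP response element from 62 to 55 bases before the start, which 1.79% of windows held. The Plk3 window on chromosome 4 and the Plk4 window on chromosome 3 held 0 matches to these motifs. The p53 half-site, present in 8.36% of windows, the CArG box, in 1.63%, and the AP-1 site, in 7.81%, were matched in none of the 4. A match is a run of letters and not a measured site, and letters outside these windows were not searched.

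**Figure D1:**
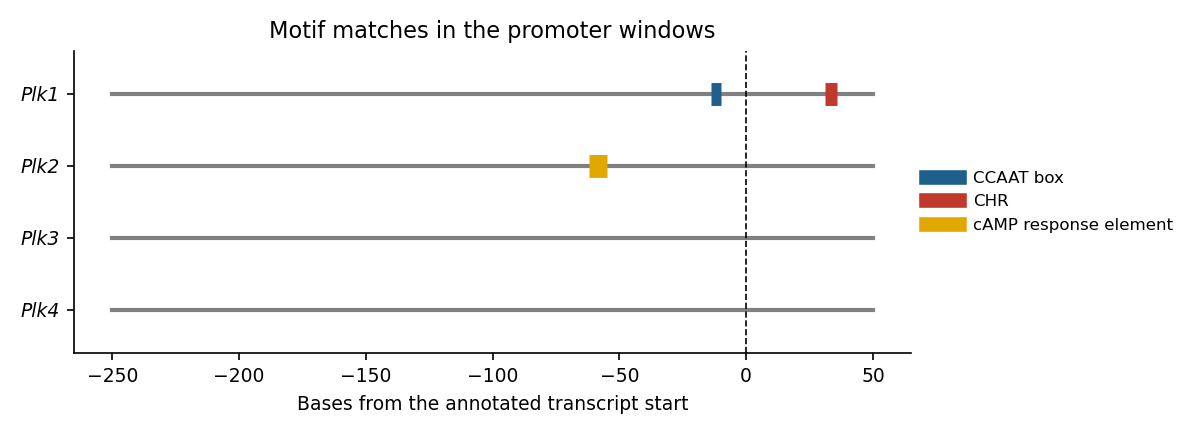
Motif matches in the promoter windows of the 4 genes, by distance in bases from the annotated transcript start (dashed line). Coloured blocks are matches to the CCAAT box, the cell cycle homology region (CHR) and the cAMP response element. Plk1 holds 2 matches, Plk2 holds 1, and the lines of Plk3 and Plk4 carry none.

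Values are log2 RMA signals as deposited, and a difference of 1 means a 2-fold change. Genes at or beyond 1 in either direction are called. No group was replicated, so differences are given by size with no error and no test. The median of the genes kept was 7.68 and 7.48 on the etoposide and mock arrays of p63 cells and 7.60 and 7.69 on those of GFP cells. Of 13 fibroblast markers, 8 or 9 reached the filter on each array, with Col1a1 (12.27, 12.20, 12.16 and 12.36 in etoposide-treated p63, mock-treated p63, etoposide-treated GFP and mock-treated GFP cells) and Vim (12.13, 12.27, 12.56 and 12.83) among them and Pdgfra, Thy1, Lum and Dcn below it on all arrays. Of 10 markers of simple epithelium 1 to 3 reached it, of 9 haematopoietic markers 0 or 1, and of 8 endothelial markers 0. Trp63 read 9.29 and 8.75 in etoposide-treated and mock-treated p63 cells, against 5.59 and 4.87 in GFP cells with the same treatments. One array, that of mock-treated p63 cells, differed most from the others. On it 78 genes lay at least 1 from each other array with no more than 0.5 between the remaining 3, and there were 2, 1 and 22 such genes on the arrays of etoposide-treated p63, etoposide-treated GFP and mock-treated GFP cells. Its SD over all probe sets was 2.28, against 2.37 to 2.39 on the others.

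After etoposide Plk1 was lower by about the same amount in both lines, and Plk2 and Plk3 were higher by at least 1 in p63 cells but not in GFP cells. Plk4 was called in neither line. In p63 cells 2 of the 4 genes were called higher and 1 lower, where 6.28% of the genes kept were called higher and 1.33% lower. The call of Plk3 in p63 cells was lost when arrays were centred or its dim reading was raised to the filter, which left 1 of the 4 higher. In GFP cells 0 of the 4 were called higher and 1 lower, where 3.52% of the genes kept were higher and 2.12% lower.

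**Figure D2:**
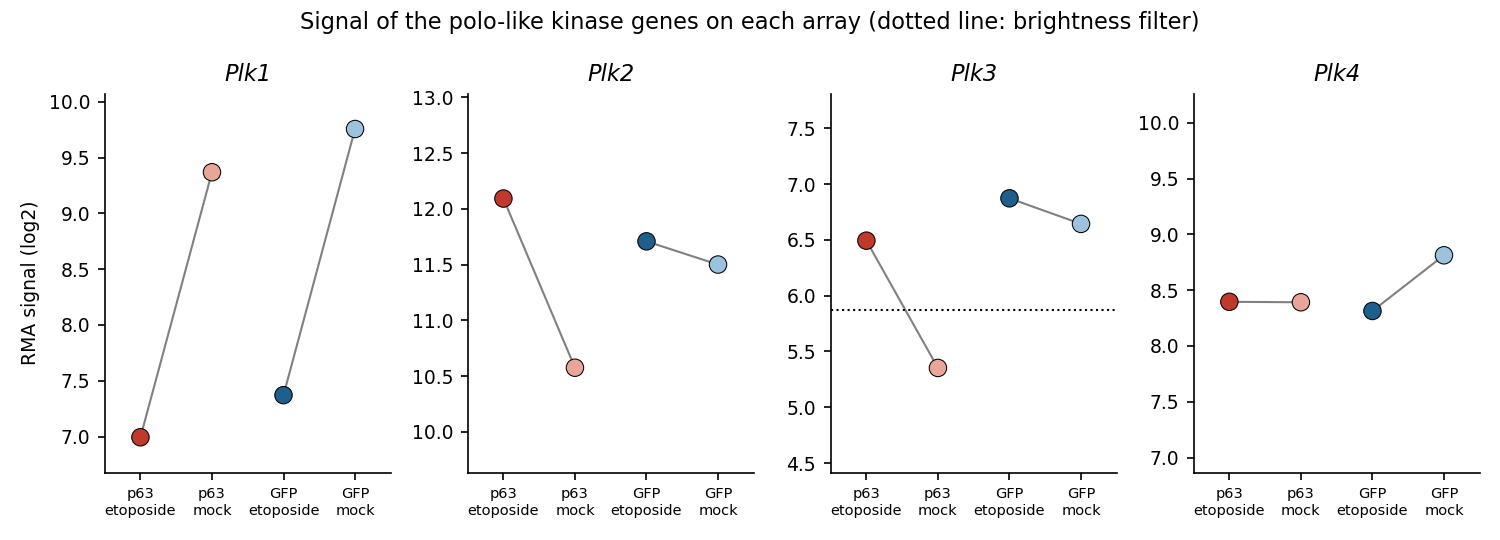
RMA signal (log2) of each polo-like kinase gene on the 4 arrays, with grey lines joining the etoposide and mock arrays of a line. Each panel spans the same range of log2 units, and the dotted line is the brightness filter of 5.87. Both etoposide arrays sit low for Plk1, the mock-treated p63 array sits low for Plk2 and Plk3, and the Plk4 values lie within 0.50 of one another.

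Plk1, the kinase of mitotic entry, read 6.99 in etoposide-treated and 9.37 in mock-treated p63 cells. In GFP cells it read 7.37 with etoposide and 9.76 with mock treatment. Both etoposide arrays lay below both mock arrays, and all 4 readings were above the filter. The log2 difference was -2.38 in p63 cells and -2.39 in GFP cells, or 5.19-fold and 5.23-fold lower. Of the 10698 genes kept, 6 had a lower difference in p63 cells and 4 in GFP cells. Both etoposide readings lay below both mock readings for 22.1% of genes kept, and 2 genes, Plk1 included, did so with a gap at least as wide as that of Plk1. The etoposide differences of Plk1 in the p63 and GFP lines were 0.01 apart, and 1.79% of genes kept had a value of that size or smaller. With arrays centred on their medians the differences were -2.57 and -2.29 in p63 and GFP cells, since centring moves an array's values for every gene alike.

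Plk4, the kinase of centriole duplication, read 8.40 in etoposide-treated and 8.39 in mock-treated p63 cells. In GFP cells it read 8.31 with etoposide and 8.81 with mock treatment. The mock-treated GFP array was the highest, and the other 3 lay close together. The log2 difference after etoposide was 0.00 in p63 cells and -0.50 in GFP cells, with 4377 and 1445 of the 10698 genes kept below it. The value in p63 cells became -0.19 when arrays were centred and -0.10 under cyclic loess. The mock-treated GFP array exceeded each other array by at least 0.42, a gap that 6.64% of genes kept reached.

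Plk2, the stress-responsive kinase first cloned as a serum-inducible gene, read 12.09 in etoposide-treated and 10.58 in mock-treated p63 cells. In GFP cells it read 11.71 with etoposide and 11.50 with mock treatment. The 2 GFP arrays lay between those of p63 cells, and the mock-treated p63 array was the lowest. The log2 difference after etoposide was 1.52 in p63 cells, 2.86-fold, and 0.21 in GFP cells, 1.16-fold. These stood at percentiles 98.2 and 75.7 of the genes kept. The p63 value exceeded the GFP value by 1.31, which 75 genes kept surpassed, and 2.84% of genes kept reached 1 in this measure. Its median over the genes kept was 0.20. For Plk2 it was 1.01 with arrays centred and 1.16 after cyclic loess.

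Plk3, a kinase activated by DNA damage in human cells, read 6.49 in etoposide-treated and 5.35 in mock-treated p63 cells. In GFP cells it read 6.87 with etoposide and 6.64 with mock treatment. The mock-treated p63 reading was the lowest and lay below the filter, which no other reading of the 4 genes did. The log2 difference after etoposide was 1.14 in p63 cells, 2.21-fold, and 0.23 in GFP cells, 1.17-fold, at percentiles 95.8 and 76.8. With the dim reading raised to the filter, the difference in p63 cells was 0.62, or at least 1.54-fold, and was no longer called. Centring the arrays gave 0.94, also under the threshold.

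The mock-treated p63 array gave the lowest reading of both Plk2 and Plk3. Plk2 lay at least 0.92 below each other array there, a gap that 126 of the 10698 genes kept reached. For Plk3 the gap was 1.14 as deposited, but 0.62 once dim readings of all genes were set to the filter, a setting in which 449 genes kept had a gap at least as wide. Plk2 also read highest on the etoposide-treated p63 array, 0.38 above the etoposide-treated GFP array. The mock-treated p63 array was the lowest of the 4 arrays for 40.4% of the genes kept. It was lowest for 14 of 23 p53-induced genes, 20 of 27 immediate early genes and 11 of 14 checkpoint genes. For centriole duplication genes the count was 10 of 20, for Plk1 activators and drivers 3 of 11 and for Plk1 substrates 6 of 25. Among substrates and partners of Plk2 and Plk3 it was 1 of 7. All 23 p53-induced genes kept had etoposide differences above 0 in both lines. For each of them a mock array was thus bound to be lowest. Such list counts follow in part from the etoposide differences and are not a separate result about the mock-treated p63 array. Without that array, the etoposide differences in GFP cells remain, 0.21 for Plk2 and 0.23 for Plk3. The p63 minus GFP differences in etoposide-treated cells also remain, 0.38 for Plk2 and -0.38 for Plk3. The part of this array in the result was not tested.

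With the etoposide differences set side by side, the mean of Plk1 and Plk4 minus the mean of Plk2 and Plk3 was -2.51 in p63 cells and -1.66 in GFP cells. In p63 cells these means were -1.19 for the mitotic members and 1.33 for the stress-responsive ones, and in GFP cells they were -1.44 and 0.22. The etoposide difference of Plk4 minus that of Plk2 was -1.51 in p63 cells and -0.71 in GFP cells, and minus that of Plk3 it was -1.14 and -0.73. Over the 4 arrays, with each gene's mean removed, the Euclidean distance was 0.62 between Plk2 and Plk3 and 2.16 between Plk1 and Plk4. Plk4 lay nearer to Plk2 (1.18) and Plk3 (1.16) than to Plk1, and Plk1 lay 3.31 from Plk2 and 3.13 from Plk3. Of the genes kept, 700 lay nearer to Plk2 than Plk3 did and 2016 nearer to Plk1 than Plk4 did. More genes, 6272 and 5386, lay nearer to Plk2 and to Plk3 than Plk4 did. Plk1 spanned 2.76 over the arrays and Plk4 0.50, and the distances depend on such ranges, so they do not place Plk4 with the stress-responsive members.

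**Figure D3:**
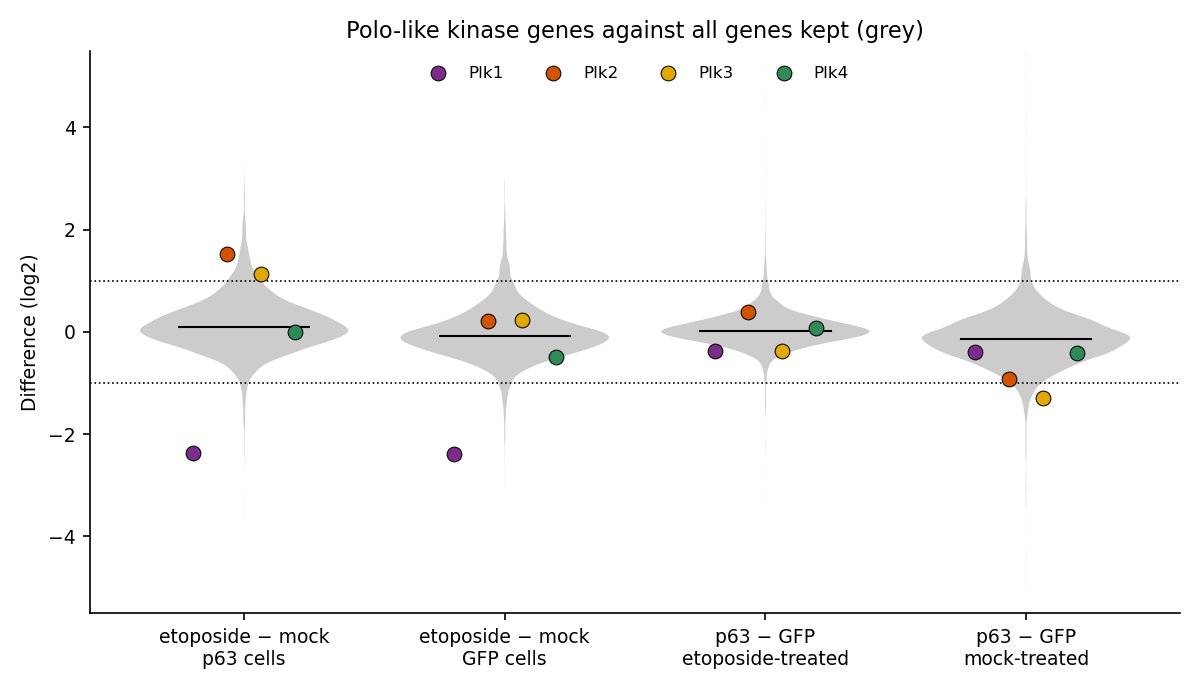
Differences (log2) of the 4 genes in the 4 comparisons, over the distribution of the 10698 genes kept (grey, black bar at the median). Dotted lines mark a difference of 1. Plk1 lies far below the bulk in both etoposide comparisons, Plk2 and Plk3 exceed 1 in p63 cells alone, and Plk3 is below -1 for p63 against GFP in mock-treated cells.

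The comparison of p63 with GFP set the 2 lines side by side at a given treatment. In etoposide-treated cells 0 of the 4 genes were called, where 1.9% of genes kept were called in either direction. The log2 differences were -0.38 for Plk1, 0.38 for Plk2, -0.38 for Plk3 and 0.08 for Plk4. Plk1 and Plk3 stood at percentiles 6.24 and 6.16 and Plk2 at 89.0. In mock-treated cells all 4 genes read lower in p63 cells, and 1 of the 4, Plk3, was called, where 3.76% of genes kept were called lower. The differences were -0.39 for Plk1, -0.92 for Plk2, -1.29 for Plk3 and -0.42 for Plk4, against a median of -0.14 over the genes kept. Plk2 was thus 1.90-fold lower, at percentile 4.86. Plk3 was 2.45-fold lower as deposited and at least 1.71-fold lower, a difference of -0.77, once the dim reading was set to the filter. These comparisons share arrays with the etoposide comparisons and are not independent of them.

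Of the genes that activate Plk1 or drive its expression, 11 of 12 listed were kept. In p63 cells 1 of the 11 was lower by at least 1, where 1.33% of genes kept were, and in GFP cells 2 of the 11, where 2.12% were. The list had medians of -0.07 and -0.61, against 0.10 and -0.08 over all genes kept. Aurka, the kinase that activates Plk1 at the spindle poles and centrosomes, was lower by at least 1 in both lines, at -1.62 and -1.74 in p63 and GFP cells, where 0.608% of genes kept were lower in both. Bora, the cofactor of Aurora A in that step, stood at -0.57 and -1.41, and Foxm1, a transcription factor of late cell cycle genes, at -0.01 and -0.61. Bora and Foxm1 were chosen after their values were seen. Other genes of this list went the other way, with 3 of the 11 above 0 in p63 cells and 2 in GFP cells.

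Substrates and partners of Plk1 had medians of -0.60 in p63 cells and -0.72 in GFP cells over 25 kept of 26. In p63 cells 2 of the 25 were lower by at least 1 and in GFP cells 6 were, where 1.33% and 2.12% of genes kept were lower. In either line 0 of the 25 were higher, where 6.28% in p63 cells and 3.52% in GFP cells were. The 2 lower in both lines were Prc1, which bundles microtubules of the central spindle and docks Plk1 there (-1.72 and -1.91), and Kif20b, a kinesin of cytokinesis (-1.44 and -1.35). Centriole duplication genes, the partners and regulators of Plk4, had medians of 0.13 and -0.28 over 20 of 20. These medians have the same signs as those of all genes kept. In p63 cells 1 of the 20 was higher, a share near the 6.28% of all genes kept. It was Ccp110, which caps centrioles, at 1.21 in p63 cells and 0.83 in GFP cells. Poc5, a centrin-binding protein of the centriole, stood at -0.31 and -0.80. Of the 20, 0 were called in both lines, where 2.57% of genes kept were higher and 0.608% lower in both.

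The stress side of the family was set against p53-induced and immediate early genes. Of 23 p53-induced genes kept of 25 listed, 20 were higher by at least 1 in p63 cells, 16 in GFP cells and 15 in both. The shares of genes kept were 6.28%, 3.52% and 2.57%. Their medians were 1.92 and 1.34. Like the other lists, this one was chosen with earlier results of these data known, so its counts are description only. Mdm2, the ubiquitin ligase of p53, differed by 2.59 and 2.40, Btg2, an antiproliferative gene, by 2.41 and 2.75, and Fas, a death receptor, by 2.39 and 2.59. Eda2r, a TNF family receptor (2.57 and 2.06), Trp53inp1 (2.14 and 2.29) and Pmaip1, which encodes NOXA (2.14 and 2.15), were also among the 15. The Plk2 and Plk3 differences in GFP cells, 0.21 and 0.23, thus lay below the median of this list by more than 1. In these GFP cells the pair did not reach the threshold that 16 of 23 genes of the p53 list reached. In p63 cells Plk2 (1.52) and Plk3 (1.14, or 0.62 with its dim reading raised) also lay below the list median of 1.92.

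Immediate early genes, the class in which Plk2 and Plk3 were first placed, had medians of 0.91 in p63 cells and 0.42 in GFP cells over 27 kept of 28. In p63 cells 12 of the 27 were higher by at least 1 and in GFP cells 6, where 6.28% and 3.52% of genes kept were. The same 6 were higher in both lines, where 2.57% of genes kept were. These were Dusp6 (2.96 and 1.47), a phosphatase of ERK, Dusp2 (1.41 and 1.31), a phosphatase of MAP kinases, and the transcription factors Atf3 (1.96 and 1.98), Fos (2.64 and 1.60), Junb (1.14 and 1.20) and Nr4a1 (1.53 and 1.05). Fos and Dusp2 read below the filter on 2 arrays each, and after raising those readings Fos differed by 1.75 and 0.85 and Dusp2 by 1.22 and 0.97, which left them called in p63 cells but not in GFP cells. For 8 of the 27 the difference in p63 cells exceeded that in GFP cells by at least 1, where 2.84% of genes kept did. In mock-treated cells 5 of the 27 were lower with p63 by at least 1, as Plk3 was, where 3.76% of genes kept were. These were Myc (-1.79), Fosl1 (-1.67), Ccn2 (-1.26), Dusp6 (-1.03) and Dusp1 (-1.01), which were named after their values were seen.

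Checkpoint kinases and their partners had medians of 0.19 in p63 cells and 0.02 in GFP cells over 14 kept of 15. Of these 0 were called in both lines, where 2.57% of genes kept were higher and 0.608% lower in both. In p63 cells 1 of the 14 was higher by at least 1, a share near the 6.28% of all genes kept. In GFP cells 0 were higher, where 3.52% of genes kept were. Wee1, the kinase that restrains Cdk1 and is degraded after phosphorylation by Plk1, stood at -0.61 and -0.98, and Chek2, a kinase of the response to double-strand breaks, at 0.81 and 0.77. Reported substrates and partners of Plk2 and Plk3 had medians of -0.45 and -0.40 over 7 kept of 12, against 0.10 and -0.08 over all genes kept. In p63 cells 0 of the 7 were called, where 6.28% of genes kept were higher and 1.33% lower. In GFP cells 2 of the 7 were lower, where 2.12% of genes kept were. These were Nek2, a centrosomal kinase (-0.58 and -1.21 in p63 and GFP cells), and Sipa1l1, a Rap GTPase-activating protein that Plk2 targets at synapses (-0.45 and -1.02).

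**Figure D4:**
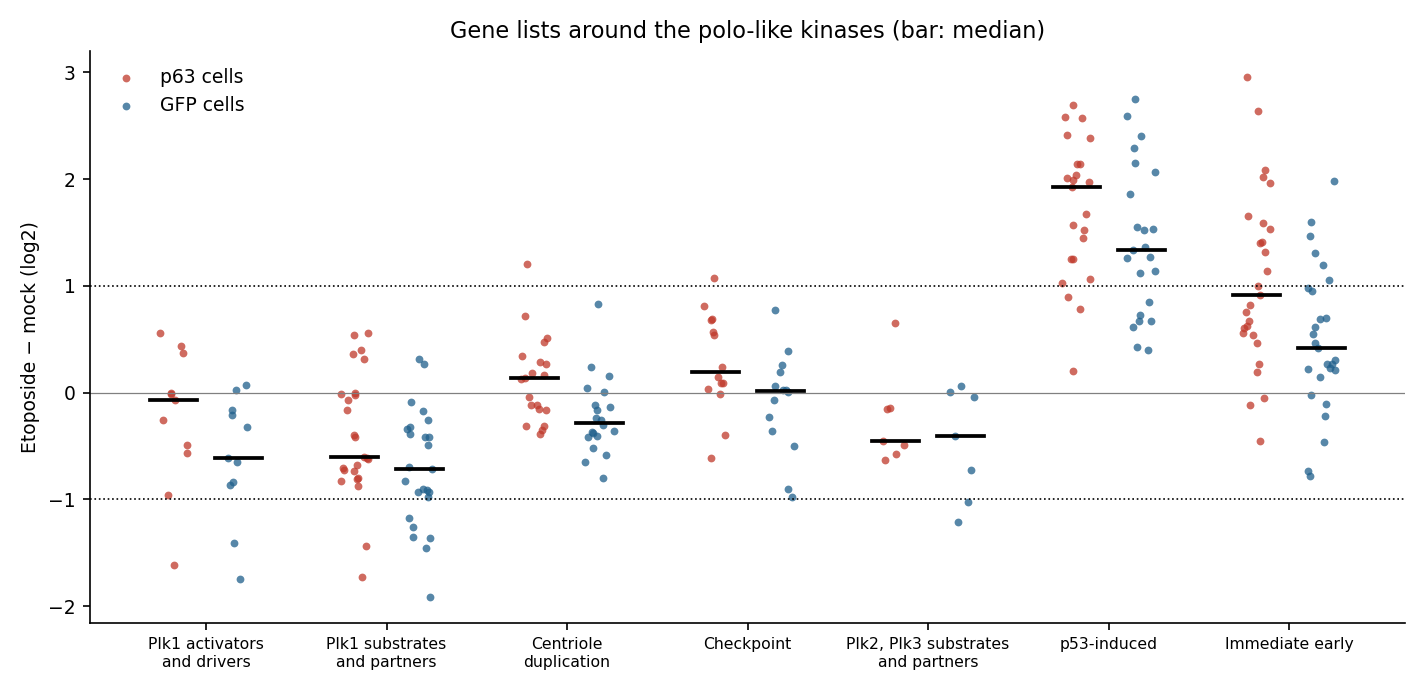
Etoposide minus mock (log2) of each gene kept in 7 gene lists, with p63 cells (red) left of GFP cells (blue) and a black bar at each median. Dotted lines mark a difference of 1. The p53-induced genes have medians of 1.92 and 1.34, and the Plk1 substrates and partners have medians of -0.60 and -0.72.

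The genes whose profile over the 4 arrays was most like that of each kinase were found by the Euclidean distance of values with the gene's mean removed. The search was among the named genes kept. Clone and predicted names, small RNAs, olfactory and vomeronasal receptors and the 4 kinases were left out. Nearest to Plk1 were Pcdh18, a protocadherin (distance 0.44), Nusap1, which binds spindle microtubules (0.45), and Cenpf, a kinetochore protein gene (0.47). Nearest to Plk2 were Ap1s2, an adaptor subunit of clathrin coats (0.05), Tnfrsf23, a decoy receptor of the TNF family (0.11), and Neto2, an accessory subunit of kainate receptors (0.16). Nearest to Plk3 were Rnf19b, a ubiquitin ligase (0.13), Pvr, the poliovirus receptor homologue (0.14), and Nfkbie, an inhibitor of NF-kB (0.14), which read below the filter on the mock-treated p63 array. Nearest to Plk4 were Mettl4, Dhx29 and Dmxl1, all at 0.04. Distances are smaller where a profile is flat, so they are not compared between the kinases.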

How the data were processed

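Trizol-extracted total RNA was amplified with a NuGEN kit for small amounts, per the labels' protocols, and read on Affymetrix Mouse Gene ST arrays. The authors deposited log2 signals, for which the submitters' processing notes name RMA and Affymetrix Expression Console. RMA equalises the probe distributions of the arrays, which removes most shifts shared by a whole array. Values from 1.27 to 14.4 gave the log base. Arrays give no counts, and their number, 1 per group, limits the precision.

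Of 35512 probe sets, a platform annotation of 2016 named 21789 by 1 symbol and 1621 by several, and 12102 are unnamed here. Symbols were updated through Entrez identifiers (21698 matched) in RefSeq. The probe set with the highest mean stood for a gene. Samples were grouped by their titles. Differences were etoposide minus mock in each line and p63 minus GFP at each treatment, and no model was fitted. The calculations were tested on simulated data. The tools were Python 3.11.15, pandas 2.3.3 and limma 3.58.1 for cyclic loess.

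The members, the 11 lists and the naming rule were chosen with earlier results of these data known. The rule named the 4 kinases, Trp63, up to 6 members of each pathway list called in the same direction in both lines after etoposide or else the 2 with the largest mean difference, and the 3 nearest genes of each kinase. Alternatives were no filter, the 75th percentile filter (7.82), a 1.5-fold threshold, the median over probe sets, centred arrays, cyclic loess and readings raised to the filter. Protein sequences were not used here.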

Additional observations from a re-analysis of the deposited data

Results flagged for a closer look

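The p63 minus GFP difference of Plk2 had opposite signs under the 2 treatments. It was 0.38 in etoposide-treated and -0.92 in mock-treated cells, a difference of 1.31 on the log2 scale. That 1.31 became 1.01 with arrays centred and 1.16 after cyclic loess. Plk4 likewise stood at 0.08 in etoposide-treated and -0.42 in mock-treated cells, a difference of 0.50. Read the other way, the same 4 Plk4 values gave etoposide differences of 0.00 in p63 cells and -0.50 in GFP cells, again 0.50 apart. This value was 0.21 with arrays centred and 0.27 after cyclic loess, and under both the etoposide difference in p63 cells was negative too, at -0.19 and -0.10. With 1 array per group these differences were not tested, and no check for a deviating replicate was possible. The mock-treated p63 values come from the array that differed most from the others. An effect of p63 cannot be told apart from one of that array or line.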

How the results depend on the processing

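No paired analysis was possible because each group has 1 array. A value counts as moved where its call changed or it moved by 0.58 or more. With 1 probe set per kinase, the filters, the 1.5-fold threshold and the median over probe sets leave each difference as it was. Of 60 differences of single kinases under the other 3 settings, 3 moved and no called one changed sign, and raising dim readings could alter Plk3 alone. All 3 belong to Plk3. Its etoposide difference in p63 cells was 1.14 as deposited, 0.94 with arrays centred and 0.62 with dim readings raised to the filter, and its difference between p63 and GFP in mock-treated cells was -1.29 as deposited and -0.77 with dim readings raised. Plk3 did not reach the 75th percentile filter. The number of kinases called higher after etoposide in p63 cells was therefore 1, not 2, under those 3 settings (arrays centred, dim readings raised, stricter filter), and the number called lower with p63 in mock-treated cells was 0 with the stricter filter or dim readings raised and 2 with the 1.5-fold threshold, against 1. Centring moved the median etoposide difference of all genes kept from 0.10 to -0.10 in p63 cells and from -0.08 to 0.01 in GFP cells.

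Over all genes kept, the calls at the 75th percentile filter and at 1.5-fold were 535 and 2354, against 814, after etoposide in p63 cells, and 364 and 2007, against 604, in GFP cells. For p63 against GFP they were 120 and 725, against 203, in etoposide-treated cells and 407 and 2441, against 661, in mock-treated cells. At 1.5-fold the genes called alike in both lines were 12, against 2, among Plk1 substrates, 2, against 1, among Plk1 drivers, 1, against 0, for centrioles, 2, against 0, for checkpoints and 10, against 6, for immediate early genes, which were 3 at the stricter filter. The stricter filter also moved the immediate early median in p63 cells to 1.32, against 0.91. The share of all genes kept called alike in both lines at 1.5-fold was not computed. The list counts at 1.5-fold are therefore not read as a trait of the lists. Leaving out the bases after the start left 1 of 2 Plk1 motif matches. Signal near background limits Plk3.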

Other observations

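Plk5, the remaining gene of the family, was examined after the values of the others were seen. It read 5.18 and 5.44 in etoposide-treated and mock-treated p63 cells and 5.26 and 5.21 in GFP cells with the same treatments, below the filter on all 4 arrays.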
